A study of Mus musculus with 74 samples.

Results

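The peaks of Gm14420, a mouse KRAB zinc finger protein (KRAB-ZFP), were described from its ChIP-seq sample in embryonic stem (ES) cells. They are the rows of the deposited peak table that carry its name, 383 of 53255 rows, and were compared with the peaks of the 8 other KRAB-ZFPs assayed in the same cells, which numbered 256 to 3906 each. The study mapped the binding of KRAB-ZFPs by chromatin immunoprecipitation of overexpressed, epitope-tagged proteins, and 67 of them could be matched to a label. All 9 ES samples were B6 ES cells, labelled as overexpressing a protein with 3 HA epitopes at its C-terminus (C-3XHA) and precipitated with the same HA antibody (clone 16B12). By the methods of the study, the tagged gene came from an integrated vector and puromycin-resistant clones were pooled, so the peaks are those of an overexpressed protein. The labels of Gm14420 and of 5 of the 8 others name the same input as control. Each KRAB-ZFP had 1 sample and no replicate, so none of the values below has a replicate error, and intervals cover counting error only. The depth of the libraries is unknown here, and the tags counted inside peaks were 11203 for Gm14420 and 3063 to 185424 for the others.

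KRAB-ZFPs are DNA-binding repressors that read DNA with an array of zinc fingers and recruit the corepressor KAP1 (Trim28) through their KRAB domain, which brings in the histone methyltransferase Setdb1. Many of them bind transposable elements, and families of their genes lie in clusters that differ between mammals. The gene of Gm14420 lies at chr2:177249438-177262834 on the plus strand of mm9, among other KRAB-ZFP genes of the distal part of the chromosome. In RefSeq it carries the symbol Zfp970.

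The 8-base core of the peaks was CAGCAGCA (TGCTGCTG on the other strand). Among sequences of 8 to 12 bases, its share of the 234 Gm14420 windows in single-copy sequence exceeded most the share of windows 1 kb to either side (114, or 48.7%, against 9 of 468, or 1.92%). These values describe the windows that chose the core. A window is the 200 bp around the summit of a peak. Of all peaks, windows held the core in 161 of 383 peaks (42.0%, 95% Wilson interval 37.2 to 47.0%) and in 15 of 766 flanking windows (1.96%). Of all 200 bp windows of mm9, 1.55% held it. In most of these peaks the core was part of a longer tract, an uninterrupted run of CAG and CAA units on one strand. A run of at least 5 units stood in 129 windows (33.7%, interval 29.1 to 38.6%), against 5 of the 766 flanking windows (0.653%) and 0.340% of all windows of the genome. The tracts shown are those of the 4 tract peaks with the highest fold and of the coding-exon tract peaks in Dlx6 and Bahcc1. They carry the main result of the sample. They are read on the strand of the CAG units in mm9 and include 6 bases to either side, and capitals mark the part of the tract inside the 200 bp window. Units were counted inside the window, so the runs in Mll2 and near C130074G19Rik, which reach its edge, are cut there.
Cyp46a1, plus strand, chr12:109587705-109587737: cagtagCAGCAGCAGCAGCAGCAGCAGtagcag
Zfhx3, plus strand, chr8:111479962-111480018: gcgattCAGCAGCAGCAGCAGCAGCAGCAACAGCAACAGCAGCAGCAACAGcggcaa
near C130074G19Rik, minus strand, chr1:186686443-186686511: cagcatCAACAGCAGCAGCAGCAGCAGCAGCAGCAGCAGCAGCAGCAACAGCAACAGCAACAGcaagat
Mll2, minus strand, chr15:98676054-98676125: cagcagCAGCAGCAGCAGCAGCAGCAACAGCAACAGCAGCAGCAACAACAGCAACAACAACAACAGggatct
Dlx6, plus strand, chr6:6813449-6813526: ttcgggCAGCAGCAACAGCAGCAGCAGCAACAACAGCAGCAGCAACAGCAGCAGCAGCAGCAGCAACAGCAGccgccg
Bahcc1, plus strand, chr11:120135864-120135968: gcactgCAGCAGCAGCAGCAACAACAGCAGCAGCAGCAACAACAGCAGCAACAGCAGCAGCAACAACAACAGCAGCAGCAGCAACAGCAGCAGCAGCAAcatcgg
Most of these tracts mixed CAG and CAA units. Zfhx3 had 12 CAG and 3 CAA units, and Bahcc1 had 21 and 10.

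A second sequence came from the 254 windows without such a tract. Of 7-base sequences, the one whose share of these windows exceeded most that of their flanking windows was TACAGCA, which reads TGCTGTA on the other strand, found in 51 windows (20.1%) and in 15 of 508 flanking windows (2.95%). Aligned on it, the bases held by at least 75% of the 51 windows within 3 positions to either side gave the 13-base site TNNTACAGCANCA (TGNTGCTGTANNA on the other strand), whose 3 named bases outside the 7 were held by 40, 44 and 45 of the 51 windows. The site stood in 41 of 383 peaks (10.7%, interval 7.99 to 14.2%), in 2 of 766 flanking windows (0.261%) and in 0.0740% of all windows of mm9. In 36 of the 41 peaks there was no tract. Shown are 8 of the single-copy peaks with 1 site, no tract and a high fold, because they hold the site without a repeat. They are read on the strand of the site, with the 13 bases in capitals.
Ptgfrn, plus strand, chr3:100852526-100852554: cgcagcttTGGTACAGCAGCAgttgctct
near Gm1631, plus strand, chr2:71489690-71489718: ttatacctTGGTACAGCAGCAgtatcaag
near Hnrpll, minus strand, chr17:80400096-80400124: agatgactTAGTACAGCAGCAgttttcag
2810002D19Rik, plus strand, chr2:94247399-94247427: tttttgggTCTTACAGCAGCAgcaccacg
near Eya4, minus strand, chr10:22801006-22801034: tgttccctTTGTACAGCAGCAacttccct
near Scaf8, minus strand, chr17:3063781-3063809: gacagcctTAGTACAGCAACAacatactg
Hsh2d, plus strand, chr8:74717170-74717198: ctcactctTGCTACAGCAGCAgtgtctgc
near Armc1, plus strand, chr3:18833267-18833295: gctggcatTTGTACAGCAGCAgtaggagg
The site overlaps the core in letters where a G fills its last N, so the motifs are not independent. The fold of these 8 peaks ran from 12.42 near Armc1 to 23.46 in Ptgfrn.

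Some windows held the 7 bases several times in a tandem array. Of the 10 peaks with the highest fold, 3 had no tract, and all 3 were arrays. They are printed whole because they include the strongest peak of the sample, and capitals mark TACAGCA.
near Ctnnd1, minus strand, chr2:84429325-84429524: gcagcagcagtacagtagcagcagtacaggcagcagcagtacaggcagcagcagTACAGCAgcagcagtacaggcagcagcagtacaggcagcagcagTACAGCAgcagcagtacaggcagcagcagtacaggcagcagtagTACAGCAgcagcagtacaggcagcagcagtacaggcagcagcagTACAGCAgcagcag
Ttc28, minus strand, chr5:111418800-111418999: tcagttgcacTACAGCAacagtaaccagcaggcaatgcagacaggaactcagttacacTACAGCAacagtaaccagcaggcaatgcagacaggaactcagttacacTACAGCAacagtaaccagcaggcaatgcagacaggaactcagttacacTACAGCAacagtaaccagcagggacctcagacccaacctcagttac
near Gtf2a1l, minus strand, chr17:89116500-89116699: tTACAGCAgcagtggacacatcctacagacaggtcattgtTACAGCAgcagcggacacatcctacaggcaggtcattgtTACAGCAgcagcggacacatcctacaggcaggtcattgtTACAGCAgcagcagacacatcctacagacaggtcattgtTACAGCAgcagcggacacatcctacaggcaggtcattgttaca
The window near Ctnnd1 repeated itself every 44 bp with 98.1% of bases equal, the window in Ttc28 every 48 bp with 94.1%, and the window near Gtf2a1l every 39 bp with 96.3%. Such repetition was not limited to windows without a tract. Of the tract windows among these 10, that in Cyp46a1 repeated itself every 18 bp with 95.6%. Those in Gm101 and at chr12:35993650-35993849 did so every 18 bp with 90.1%, and the remaining tract windows reached at most 85.4%. These 3 windows held no TACAGCA. The Ttc28 array matched the 7 bases 4 times but not the 13, and so was counted with neither sequence.

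An interspersed family gave 9 windows without a tract on 8 chromosomes, which shared 24-base words with each other, and their windows had 1 to 14 exact copies of such words in mm9 as the median of the window. The site stood in 8 of the 9, with a median fold of 9.45 over the 9. The 3 with the highest fold are shown with 20 bases to either side of the site, which is in capitals, to let the shared sequence around it be seen. The window near Scaf8 was also among the single-copy windows above.
near Csmd3, minus strand, chr15:47202162-47202214: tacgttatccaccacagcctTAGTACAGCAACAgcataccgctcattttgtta
near Scaf8, minus strand, chr17:3063769-3063821: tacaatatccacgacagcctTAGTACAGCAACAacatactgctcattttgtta
Gm2117, plus strand, chrX:27333712-27333764: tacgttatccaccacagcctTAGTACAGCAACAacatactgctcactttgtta

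The Gm14420 peaks had a median score of 59.6 (range 50 to 3100), where MACS14 scores a peak by its p-value on a log10 scale, multiplied by -10, and the threshold of 1e-05 is a score of 50. The median fold enrichment over the local background was 9.95 (range 2.31 to 112), the median number of tags 15 (10 to 905), the median called width 383 bp (154 to 3182 bp) and the median false discovery rate of a peak 29.7%. There were 199 of the 383 peaks with a score under 60 and 82 with 100 or more, and 1 had a false discovery rate of at most 5%. Most peaks stood close to the threshold.

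The sequence and the strength of a peak went together. Of the 199 peaks scoring under 60, 28 held a tract and 11 the site, which left 160 (80.4%) with neither. Of the 20 peaks scoring 300 or more, 17 held a tract and 2 the site, and the remaining peak was the Ttc28 array. Among the 82 peaks with a score of at least 100, 69 (84.1%) held a tract or the site. The 129 tract peaks had a median fold of 11.3 (quartiles 9.54 and 15.2), the 36 site peaks 11.1 (9.39 and 14.3) and the 218 peaks with neither 9.42 (8.13 and 10.9). Their median scores were 85.3, 77.8 and 55.5, and their median tags 19, 22 and 12. The ranges of the 3 sets overlapped. Peaks of 1 sample are not replicates, so no test was made between these sets.

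**Figure D1:**
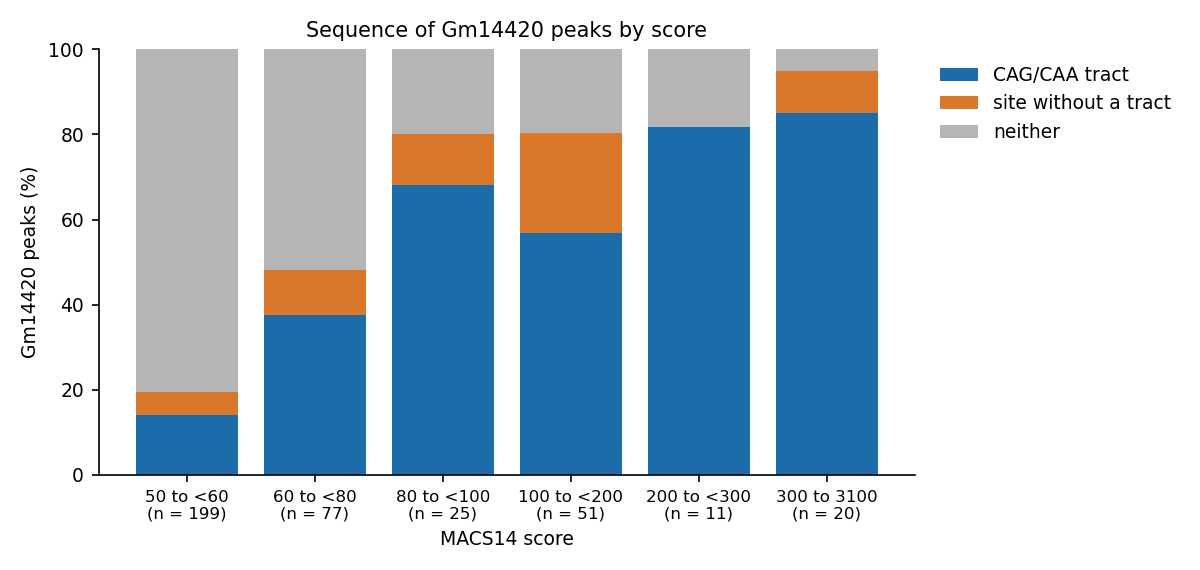
Share of Gm14420 peaks (vertical axis, percent) with a CAG/CAA tract of at least 5 units, with the 13-base site but no tract, or with neither, in 6 classes of MACS14 score (horizontal axis, number of peaks below each bar). The share with neither is 80.4% at scores under 60 and 5% from 300 up.

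**Figure D2:**
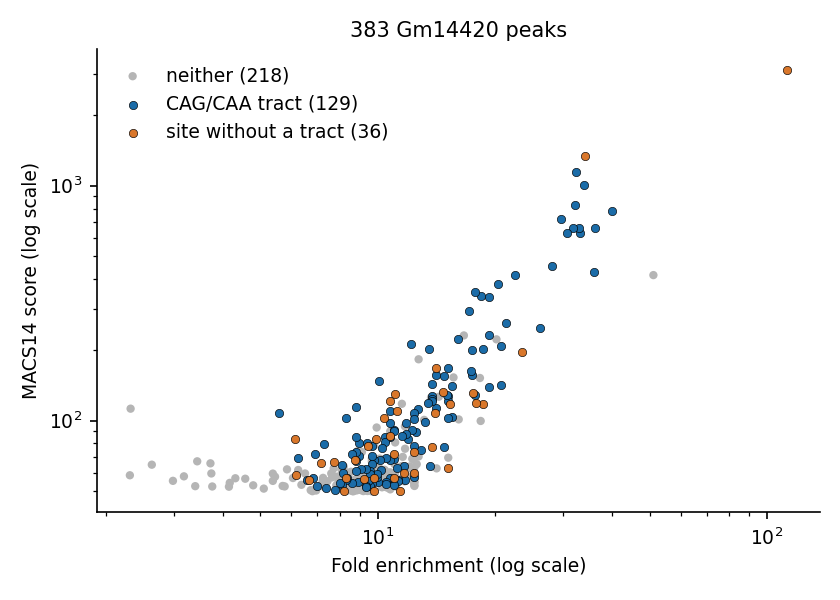
Fold enrichment (horizontal axis) against MACS14 score (vertical axis) of the 383 Gm14420 peaks, both on log scales, coloured by sequence. Tract and site peaks make up most of the upper right, with the array near Ctnnd1 at a fold of 112 and the capped score of 3100. Most grey peaks, with neither sequence, run along the bottom at low fold. Of these peaks 13 score at least 100, and the Ttc28 array, at a fold of 51.07, is the strongest of them.

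The strongest peak by fold and by score was the array near Ctnnd1, at chr2:84429325-84429524. It had 316 tags, a fold of 112.47 and a called width of 1113 bp, and lay between genes, 10803 bp from Ctnnd1, the gene of the adherens junction protein p120 catenin. The Ttc28 array at chr5:111418800-111418999 followed with 49 tags and a fold of 51.07. The next was a tract in an intron of Cyp46a1, the cholesterol 24-hydroxylase, with 93 tags and a fold of 40.03. Then came the coding-exon tract of Zfhx3, a homeobox and zinc finger transcription factor, with 93 tags and a fold of 36.22, and a tract 9258 bp from C130074G19Rik with 51 tags and a fold of 35.89. The array near Gtf2a1l had 193 tags and a fold of 33.98, with the second highest score of the sample, 1335.36. Its deposited false discovery rate was 100%, the highest of the sample, against 0% for the array near Ctnnd1. Over the next peaks by score the rate fell together with the score, to 66.67% at 1139.93, 50% at 1009.5 and 40% at 828.8. From rank 2 to rank 5 by score, the rate was thus in inverse proportion to the rank. It is not read here as the chance that a single peak, such as the array near Gtf2a1l, is false. The coding-exon tract of Mll2, the histone H3 lysine 4 methyltransferase now called Kmt2d, had 144 tags, a fold of 33.88 and a score of 1009.5. The last 3 of the 10 highest folds were tracts between genes on chromosomes 12 and 17 (33.13 and 32.96) and in an intron of Gm101 (32.31), whose run of 66 units filled the whole window. By score, the fifth peak was a tract in an intron of Zfp704, a zinc finger gene, with 108 tags and a score of 828.8.

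At the other end, 23 peaks had a fold under 6. They had 16 to 905 tags (median 38), and 22 of them held neither sequence. The peak with the most tags, 905, lay in an intron of Sfi1 at a fold of 2.31, and the peak in Lass5, a ceramide synthase gene, had 487 tags at a fold of 2.32. The control reads at these places were not analysed here.

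The share of tract loci under a peak was higher the longer the longest tract of the locus. Tracts of mm9 within 200 bp of each other were joined into 44750 loci with at least 5 units, of which 128 (0.286%) lay under a Gm14420 window. Each locus was classed by its longest tract and counted where any of its tracts lay under a window. The longest tract could thus lie outside the window, and loci with several tracts had more chances to be counted. All percentages of tracts below are to be read against this 0.286%, which covers loci of any composition. It includes the loci of CAA alone, of which 0 lay under a window. The share over loci whose longest tract held a CAG was therefore higher. Of loci whose longest tract held at least 1 CAG, 11 of 3904 with 7 to 9 units were under a window (0.282%, interval 0.157 to 0.504%), 30 of 1859 with 10 to 14 (1.61%, 1.13 to 2.29%), 30 of 677 with 15 to 19 (4.43%, 3.12 to 6.26%), 34 of 379 with 20 to 29 (8.97%, 6.49 to 12.3%) and 19 of 68 with 30 or more (27.9%, 18.7 to 39.6%). No interval of these 5 classes overlapped that of the next. Shorter tracts were at 4 of 9653 with 5 or 6 units (0.0414%) and 7 of 27363 with 4 (0.0256%), and these intervals overlapped.

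The composition of the tract went with these shares too. Of loci whose longest tract held CAA units alone, 0 lay under a window. With limits set at 3 counts of the total, in place of the Wilson interval, these were 25232 with 5 to 9 units, which allows a share of up to 0.0119%, 2613 with 10 to 14 units, which allows a share of up to 0.115%, and 365 with 15 or more, which allows up to 0.822%. With 15 or more units, 27 of 314 loci of CAG alone (8.60%, interval 5.98 to 12.2%) and 46 of 343 with more CAG than CAA (13.4%, 10.2 to 17.4%) were under a window, but 10 of 467 with CAG as the lesser or an equal part (2.14%, 1.17 to 3.90%). At 10 to 14 units the order was 4.40%, 2.16% and 0.297%. Inside the windows of the 129 tract peaks, 55 had a longest tract of CAG alone, 58 one with more CAG than CAA, 16 one with as much or more CAA, and 0 one of CAA alone.

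**Figure D3:**
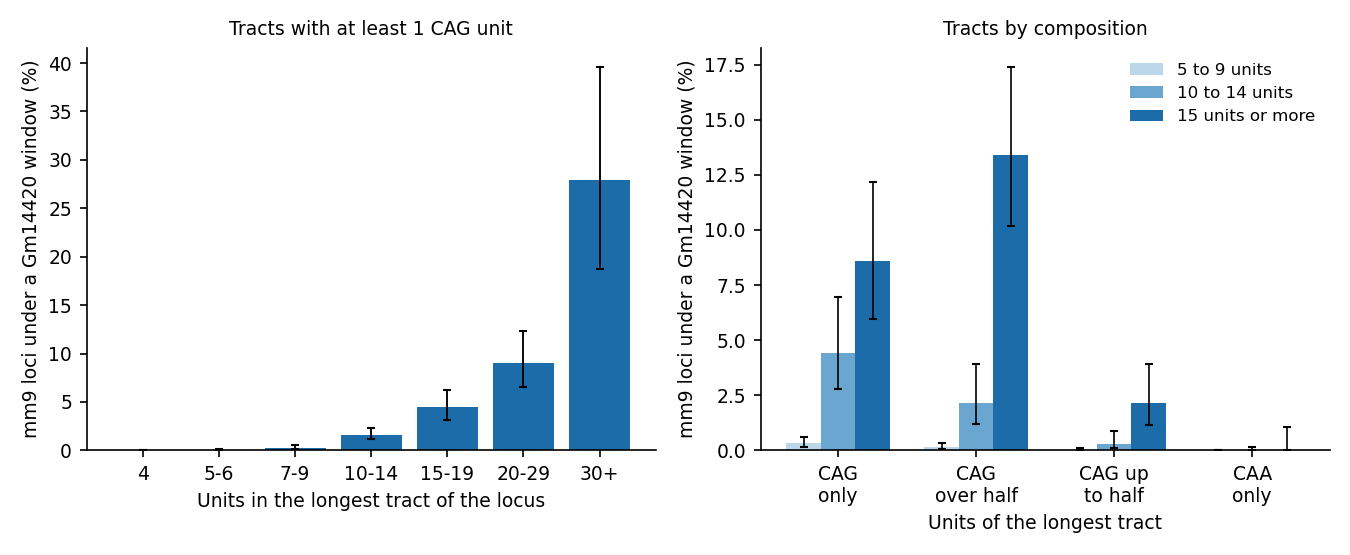
Share of mm9 loci with a CAG/CAA tract that lay under a Gm14420 window (vertical axes, percent, with 95% Wilson intervals as error bars), by units in the longest tract of the locus for tracts with at least 1 CAG (left) and by composition in 3 length classes (right). The share reaches 27.9% at 30 or more units and is 0 for CAA alone in all 3 length classes.

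Among the tract peaks themselves, strength was set beside the units inside the window, which understate tracts that run past its edge, such as that of Gm17582, with 62 units inside and 103 in all. The 19 peaks with 5 to 9 units had a median score of 68.0, the 39 with 10 to 14 a median of 81.2, the 23 with 15 to 19 a median of 85.0, the 31 with 20 to 29 a median of 108 and the 17 with 30 to 66 a median of 129. Spearman's rho of units and score over the 129 peaks was 0.216, and of units and fold 0.201, with all points from 1 library. Over the same peaks rho was 0.0459 for CAG units and score and -0.266 for the CAG share of units and score. A larger CAG share thus did not go with a higher score among the tract peaks.

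The letters of the site also differed in how often they lay under a window. All percentages of sites are to be read against 0.407%, the share of the 10069 mm9 loci of the site that did. Of 10116 matches to the 13 bases in mm9, 45 lay in a Gm14420 window (0.445%, interval 0.333 to 0.595%). With G as the base after TACAGCA it was 34 of 2507 (1.36%, 0.972 to 1.89%), with A 11 of 4137 (0.266%, 0.149 to 0.476%), with C 0 of 1582 (upper Wilson limit 0.242%) and with T 0 of 1890 (0.203%). The 7 bases alone occurred 420624 times, of which 92 lay in a window (0.0219%). Where the 13 bases stood once within 200 bp, 38 of 10054 loci were under a window (0.378%), and where they stood 2 or more times, 3 of 15 were, 2 of 11 with 2 or 3 matches and 1 of 4 with more. The base after TACAGCA is not fixed in the site. The 3 windows of the interspersed family shown above all had the A. Matches within that family share the sequence around the site, and the intervals do not take this into account.

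Sites lay closer to the summit than tracts. The centre of the site was at a median of 15.5 bp from the summit in 36 peaks (quartiles 8.50 and 46.8 bp) and within 25 bp in 21 of them (58.3%). The centre of the longest tract was at a median of 39 bp in 129 peaks (15 and 56.0 bp), within 25 bp in 46 (35.7%).

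**Figure D4:**
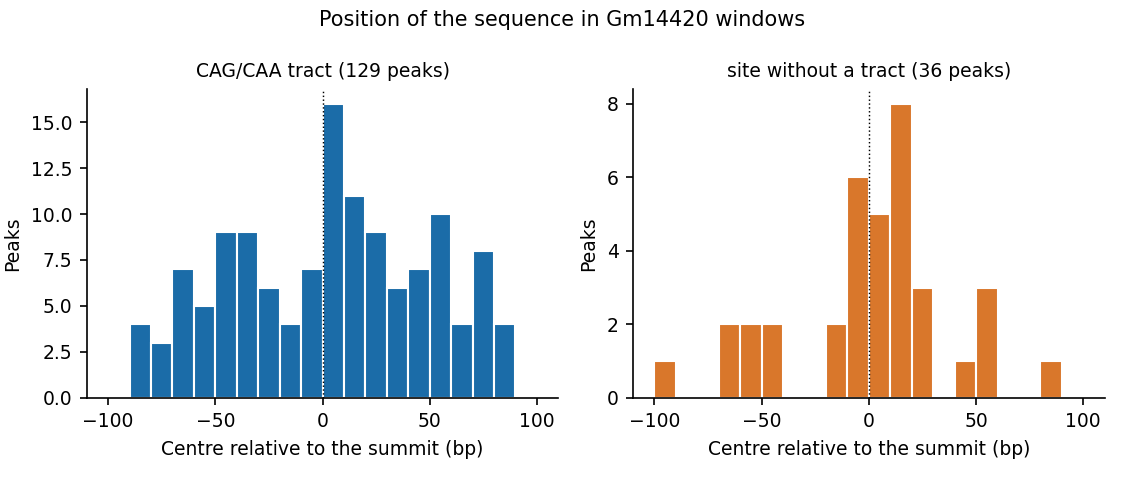
Distance of the centre of the longest tract (left, 129 peaks) and of the nearest site (right, 36 peaks without a tract) from the summit in bp, positive towards higher coordinates, in bins of 10 bp with the number of peaks on the vertical axis. Sites crowd around the dotted line at the summit, with a median distance of 15.5 bp, and tracts spread over the window, with a median of 39 bp.

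Tract and site were rare in the peaks of the other KRAB-ZFPs. In the other 8 ES samples, 0 to 5 windows held a tract (0 to 0.391%) and 0 or 1 the site (0 to 0.0649%), although the largest of them had 3906 peaks. Over the 66 other KRAB-ZFPs in either cell line, the share with a tract was at most 1.67%, in Gm13154 (26 of 1561), and that with the site at most 2.36%, in Gm14436 (5 of 212). The F9 samples differ in cell line, antibody, control and threshold, so these values stand side by side without a test. The 8-base core by itself was frequent elsewhere too. It stood in 38.9% of the 2787 peaks of Gm14412, of which 9 held a tract.

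To count the motifs in peaks that their discovery had not used, core and site were found again in the odd-numbered chromosomes alone and counted in the even-numbered ones, X and Y. The same letters came out. In the 199 Gm14420 peaks of the other chromosomes the core stood in 84 (42.2%, interval 35.6 to 49.2%) and the site in 21 (10.6%, 7.01 to 15.6%). The other 8 ES samples held the core in 0.388 to 6.67% of such peaks and the site in 0 to 0.128%. Gm14420 was the highest of 9 in both (two-sided exact permutation test over the 9 samples, p = 0.111, adjusted p = 0.444 over 12 measures). With 1 sample against 8, p cannot go below 0.111, so this test ranks Gm14420 and cannot pass 0.05. Both sequences were searched for in Gm14420 peaks alone, so a high rank of Gm14420 was favoured in advance.

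**Figure D5:**
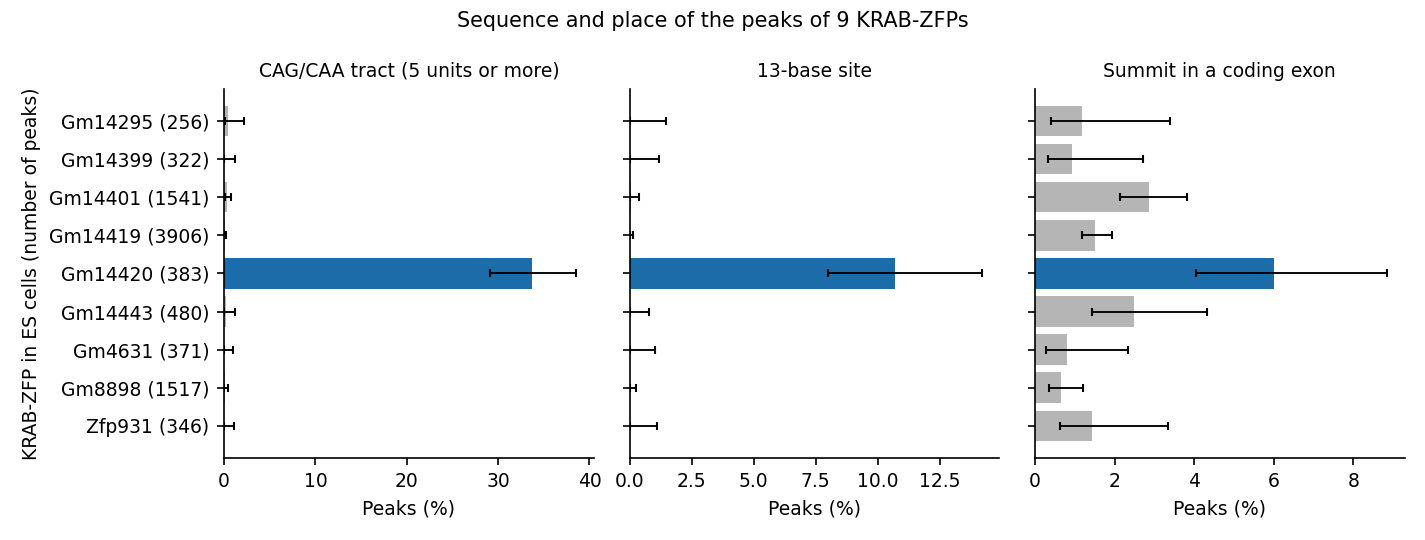
Share of the peaks of each of the 9 KRAB-ZFPs in ES cells (percent, with 95% Wilson intervals; number of peaks beside each name) that held a CAG/CAA tract of at least 5 units, held the 13-base site, or had a summit in a coding exon. Gm14420, in blue, has 33.7%, 10.7% and 6.01%, and the other 8, in grey, at most 0.391%, 0.0649% and 2.86%.

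Peaks of Gm14420 lay between genes in 213 cases (55.6%, interval 50.6 to 60.5%), in introns in 136 (35.5%), in coding exons in 23 (6.01%, 4.03 to 8.85%), in UTRs in 8 (2.09%) and in other exons in 3. The share in coding exons was the highest of the 9 ES samples, the others having 0.659 to 2.86% (exact permutation p = 0.111, adjusted p = 0.444). Of the 23 coding-exon summits 18 held a tract, 1 the site and 4 neither. Within 1 kb of a transcript start lay 31 summits (8.09%), against 1.38 to 12.8% in the others, where Gm14420 was the third of 9 (exact permutation p = 0.667).

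The 18 coding-exon summits on tracts fell in 15 genes, and Zfhx3, Mll2 and D6Ertd527e had 2 each. Zfhx3 had the peak with a fold of 36.22 and a second of 10.42. Mll2 had peaks with a fold of 33.88 and 16.04. Gm17582 followed with a fold of 28.04, Dlx6, a homeobox gene, with 18.65, and Bahcc1, a chromatin protein gene, with 17.74. The forkhead genes Foxp2 and Foxp1 had peaks with a fold of 14.16 (32 tags) and 9.95 (18 tags). Weaker peaks lay in the corepressor gene Ncor1 (10.04, 14 tags), in A230006K03Rik (9.66, 15 tags), in the phosphatase gene Dusp8 (9.57, 15 tags), and in Mllt3, a subunit gene of the super elongation complex (9.31, 10 tags). Of these genes Ncor1, Foxp1 and Mllt3 had scores of 55.07, 57.31 and 52.62, close to the threshold. D6Ertd527e (10.05 and 6.84), Ccbe1 (11.27) and Gm8038 (6.92) were also among the 15 genes. Genes below the 20 exon or promoter peaks of highest fold were named here after their values were seen.

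In coding exons a run of CAG and CAA codons in frame encodes glutamine. Of 16 tract loci in coding exons with a tract under a Gm14420 window, the longest tract was read in the glutamine frame in 13. These included Zfhx3, Mll2, Dlx6, Foxp1, Foxp2 and Ncor1. In the other 3, in Dusp8, Mllt3 and D6Ertd527e, it was read in the serine frame (AGC). In A230006K03Rik, and at the Mll2 peak with a fold of 33.88, the longest tract of the locus lay outside the 200 bp window. Among all mm9 loci with at least 10 units and a CAG, 105 lay in coding exons and 14 of these under a window (13.3%, interval 8.11 to 21.1%), against 99 of 2878 elsewhere (3.44%, 2.83 to 4.17%). Among loci with more CAG than CAA the shares were 14 of 98 (14.3%, 8.70 to 22.6%) and 86 of 1407 (6.11%, 4.98 to 7.49%), a smaller ratio than without regard to composition. Each of these groups pooled tracts of 10 to 186 units. Length, with which the share under a window rose, was not matched between coding exons and elsewhere. Most tracts under a window lay outside coding exons. By frame, 12 of 94 loci in the glutamine frame (12.8%) and 2 of 7 in the serine frame were under a window.

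Exon or promoter peaks with the site included a peak in an intron of 2810002D19Rik, 556 bp from a start of Ttc17 (fold of 17.53). Another lay in an intron of Hsh2d, 154 bp from a start of Hsh2d (14.01). Further peaks were those of 6820408C15Rik in a coding exon (11.22) and of Gnpat, a peroxisomal enzyme gene of plasmalogen synthesis, in a UTR (10.77). That of Cyp51, the sterol 14-demethylase of cholesterol synthesis, lay 286 bp from a start (10.38). Tract peaks of this kind lay in UTRs of D130043K22Rik (15.55) and Acsl1, a long-chain fatty acid activating enzyme (14.12), and 393 bp from the start of Hspbp1 (12.38). Tst, a mitochondrial sulfurtransferase gene, had a peak with neither sequence 249 bp from its start (14.36).

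Of 37273 annotated genes, 310 (0.832%) had a Gm14420 summit in the body or within 10 kb, and 229 of 22367 protein-coding genes (1.02%). In the gene body alone it was 174 genes (0.467%) and 149 protein-coding genes (0.666%). Counts in lists of genes are to be read against these shares. Of the 9 genes of the KRAB-ZFPs assayed in ES cells, Gm14420 included, 0 had one, and 0 of the 19 pluripotency genes annotated of 20 named. Of 23 genes of the KAP1 silencing pathway 3 had a summit in an intron, Hdac2 (11.04), Setdb1 (8.97) and Atf7ip (6.06), all with neither sequence and a score of at most 57.0. Of 397 zinc finger genes 3 (0.756%) had one, Zfp704 with a tract (32.18), Zfp563 with neither sequence (12.42) and Zfp442 with a tract outside the gene (10.2). Besides the 3 genes with paired tract peaks, Etl4, Slc8a3, Sfi1 and Gm13227 held 2 summits, none of them with a tract or the site.

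Gm14420 peaks stood less in repeated sequence than those of the other ES samples. A window was called multi-copy where its 24-base words had a median of at least 10 exact copies in mm9. This held for 96 peaks (25.1%, interval 21.0 to 29.6%), the lowest of the 9 samples, the others having 34.8 to 88.9%, a difference that did not pass the test (exact permutation p = 0.222, adjusted p = 0.667). Among peaks scoring at least 100 in every ES sample, Gm14420 was no longer the lowest and ranked 6 of 9 from the highest. Of the peaks with neither sequence 72 (33.0%) were multi-copy, of tract peaks 21 (16.3%) and of site peaks 3 (8.33%). No repeat annotation was used here, so elements are not named.

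Few windows were shared with other KRAB-ZFPs. At an overlap of at least 25%, 5 of 383 windows (1.31%, interval 0.559 to 3.02%) met a window of another ES sample, and none of these 5 held a tract or the site. With all 66 other KRAB-ZFPs it was 17 windows (4.44%). Gm13154 shared 5, all with a tract, which is 0.320% of its own 1561 peaks, and Gm13152 shared 3, of which 2 held a tract. The peak in Lass5 with 487 tags was shared with Zfp931, whose label names another input.

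In the other measures Gm14420 lay within the range of the 8 others. Its median fold was the eighth of 9 and its median score the fifth, and its median GC content of 47.5% compared with 44.5 to 51.5%. Its peaks were on all 21 chromosomes, with chromosome 6 holding 39 (10.2%, against 5.63% of the length of the genome and 5.56% of the peaks of the other ES samples), 19 of them with a tract, and chromosome X 10 (2.61% against 6.28% of the length). Within 10 kb of another Gm14420 peak lay 11 peaks (2.87%), against 0 to 6.48% in the others (exact permutation p = 0.778).

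Of the 218 peaks with neither sequence, 12 held the core and 15 the 7 bases TACAGCA, together 24. Their median of 12 tags was close to the lowest count of a called peak, which was 10. They are 56.9% of the sample, and with no replicate it cannot be told which of them would be found again.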

How the data were processed

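The authors deposited 1 table of ChIP-seq peaks for all KRAB-ZFPs, in mm9, made with Bowtie and MACS 1.4.2 (submitters' processing notes and methods) at a p-value of 1e-05 with no enrichment minimum for the ES samples. Each deposited row gives a tag count, a score, a fold enrichment over control, a false discovery rate in percent and a called width. Replicates and library depth are not in these rows, and 1 name of 244 peaks that matched no label was not used. Peaks were cut to 200 bp windows at the summit and annotated with gencode vM1 on NCBIM37. Sequence words were counted on both strands, with flanks 1 kb to either side, by scripts in python 3.11.15 with numpy 2.4.6, pandas 2.3.3 and pysam 0.24.0, tested on simulated data. A tract is a run of at least 5 CAG or CAA units. Multi-copy means a median of at least 10 copies of 24-base words. Samples were compared by a two-sided exact permutation test, 1 against 8, with Benjamini-Hochberg adjustment over 12 measures, and shares have Wilson intervals at 95%. The genes named are those at the 10 peaks of highest fold and the 5 of highest score, up to 20 by fold with a summit in an exon or within 1 kb of a start, those with 2 or more summits, and list members with a summit in the body or within 10 kb. Members and lists were chosen with earlier results of these data known. Alternatives were other peak thresholds, windows, copy and distance limits, tract lengths and samples. Values of 1 gene with a tract peak and 1 tract sequence are not reported here.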

Additional observations from a re-analysis of the deposited data

Results flagged for a closer look

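In 9 of the 17 measures compared over the 9 ES samples, 1 sample stood apart by the gap to its neighbour relative to the whole range, where chance flags about 1 in 20 groups. Gm14420 stood apart in 4. These were its share of summits in coding exons (6.01%), of windows with the core (42.0%), with a tract (33.7%) and with the site (10.7%), and the last 3 were chosen on its own windows. Gm14419 stood apart in 5, with 3906 peaks, a median width of 741 bp, a median of 46.0 tags, a median score of 260 and a median fold of 24.4. Gm14419 therefore widens the range against which the strength of the Gm14420 peaks was set.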

How the results depend on the processing

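Of 65 alternatives over 22 results, 41 kept the value or direction. The number of Gm14420 peaks fell to 82 at a score of at least 100, 188 at a fold of at least 10 and 1 at a false discovery rate of at most 5%. At a score of at least 100, the share with the core was 81.7%, with a tract 67.1%, with the site 19.5%, in multi-copy sequence 18.3% and between genes 50%. The core stood in 37.1% of 100 bp windows, in 61.9% with 1 mismatch and in 48.7% of single-copy peaks. A tract of at least 10 units stood in 28.7%, and the 7 bases alone in 17.2%. The multi-copy share was 38.9% from 2 copies and 14.1% from 100. Within 5 kb of a start lay 22.2%, and within 5 kb of another peak 1.04%. Genes with a summit were 174 in the body alone and 874 within 50 kb. Of 36 alternatives to the differences from the other ES samples, 5 turned the sign, none of them past the threshold: without Gm14419, log10 tags (0.0497) and GC (0.143 percentage points), with the same input label log10 width (-0.0326), and at a score of at least 100 GC (0.406) and the share near a start (-1.92). The cause was not tested. In the smallest ES sample 3 peaks reached that score. The alternatives for tract and site, and that without Gm14419, were chosen after seeing the data. No paired analysis was possible because each KRAB-ZFP had 1 sample and replicates share no number. Depth is unknown, and peaks near the threshold limit what 1 sample can show.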

Other observations

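Besides the family with the site, 6 further families of 3 to 7 Gm14420 windows shared 24-base words and held no site. The largest had 7 windows on 6 chromosomes with a median fold of 8.18 and a median score of 57.0, and the median of their copy numbers in mm9 was 8643. The next had 6 windows on 4 chromosomes with a median fold of 9.55 and a median score of 59.2. Single peaks near the threshold in coding exons with neither sequence lay in Setd1a, a histone methyltransferase gene, with 12 tags and a fold of 8.61, and in Wdr52, with 10 tags and a fold of 9.66. These genes were picked after their values were seen.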
